A study of Mus musculus with 12 samples.

Results

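H19 and 9 other imprinted growth genes (Igf2, Igf2r, Dlk1, Meg3, Cdkn1c, Peg3, Mest, Plagl1 and Ndn) were followed in the hearts of 12 mice on 1-colour Agilent expression arrays. They were selected by gene symbol, as 10 of the 37074 names on the array, and every probe that carried one of the symbols was taken. H19 itself was chosen from its level in the diabetic hearts of these same samples, so its difference between diabetic and control hearts is given below as a description, without a test. The 10 genes had 24 probes, of which 15 passed the filter for measurable signal, at least 1 for each gene.

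All mice were C57BL6/J males, aged 5 months. Diabetes of type 1 followed injection of streptozotocin, which kills the beta cells of the pancreas, at 50 mg/kg/day on 5 days, and a blood glucose of at least 17 mM counted as diabetic. Pargyline, an inhibitor of the monoamine oxidases, was given at 50 mg/kg/day for 12 weeks. The groups were control mice (C), control mice given pargyline (C+P), diabetic mice (D) and diabetic mice given pargyline (D+P), with 3 hearts in each. The tissue was labelled heart muscle and the part of the heart was not given. All 8 cardiomyocyte markers were well above background on every array, and of the 5 atrial markers, Myl4 and Nr2f2 were so on 12 arrays, Myl7 on 4, and Sln and Bmp10 on 0.

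Imprinted genes are expressed mainly from the copy inherited from 1 parent, and many of them set the size of the embryo and placenta. H19 and Igf2 lie side by side and share enhancers: the maternal chromosome makes H19, a long RNA that codes for no protein and carries the microRNA miR-675, and the paternal chromosome makes Igf2, a growth factor of fetal tissues. Both are abundant in fetal muscle and heart and decline after birth. Meg3 and Dlk1 form a similar pair of a maternal non-coding RNA and a paternal protein-coding gene.

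The probes for the non-coding members are shown because they define which stretch of each RNA was measured. Both H19 probes lie on chromosome 7 in build mm9, H19 probe 1 at chr7:149761492-149761551 and H19 probe 2 at chr7:149762173-149762232, and neither shares a run of 20 bases with the miR-675 hairpin. Probes of a gene are numbered from the brightest down.
H19 probe 1: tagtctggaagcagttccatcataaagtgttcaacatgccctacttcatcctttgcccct
H19 probe 2: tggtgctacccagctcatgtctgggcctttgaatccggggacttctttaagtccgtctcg
The mature miR-675 strands, from RefSeq on GRCm38.p6, are given with the seed (bases 2 to 8) in capitals. No other of the 1679 mature mouse microRNA names in that table shares either seed.
mmu-miR-675-5p: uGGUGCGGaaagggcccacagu
mmu-miR-675-3p: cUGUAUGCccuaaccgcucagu
The 2 bright Meg3 probes are shown because they read different stretches of the RNA. In mm9 they lie at chr12:110783470-110783529 and chr12:110809678-110809737.
Meg3 probe 1: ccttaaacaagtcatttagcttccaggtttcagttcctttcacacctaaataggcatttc
Meg3 probe 2: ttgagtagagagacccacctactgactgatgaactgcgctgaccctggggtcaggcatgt
The letters of Meg3 probe 1 occur, on the same strand, inside the 300 bases that surround the downstream RefSeq start of Meg3, at chr12:109545148-109545447 of GRCm38.p6, where they cover chr12:109545260-109545319 (in capitals).
Meg3 start window: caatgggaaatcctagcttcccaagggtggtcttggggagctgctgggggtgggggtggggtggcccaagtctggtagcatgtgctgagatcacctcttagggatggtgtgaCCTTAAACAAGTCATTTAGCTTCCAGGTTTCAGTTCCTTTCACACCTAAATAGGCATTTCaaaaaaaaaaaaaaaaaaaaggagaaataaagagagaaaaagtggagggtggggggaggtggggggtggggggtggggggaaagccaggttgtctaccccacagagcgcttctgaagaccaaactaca

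H19 was higher in diabetic than in control hearts, with and without pargyline, on both of its probes. Values are log2 quantile-normalized intensities, on which a step of 1 is a doubling. On H19 probe 1, well above background on 12 of 12 arrays, the C hearts read 9.02, 9.37 and 9.45 and the D hearts 10.71, 10.22 and 10.49. The C+P hearts read 9.34, 9.20 and 8.90 and the D+P hearts 9.85, 10.58 and 10.88. Every diabetic heart lay above every control heart, and the lowest diabetic value came from D+P replicate 1.

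The mean of H19 probe 1 was 10.47 ± 0.24 in D and 10.44 ± 0.53 in D+P, against 9.28 ± 0.23 in C and 9.15 ± 0.23 in C+P (SD, n = 3). D was higher than C by 1.19 (SE 0.26), or 2.28-fold, and D+P was higher than C+P by 1.29 (SE 0.26), or 2.45-fold. Averaged over pargyline the difference was 1.24 (SE 0.19), or 2.36-fold. In the order of levels D, D+P, C and C+P, the neighbours D and D+P differed by less than their spread, as did C and C+P.

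H19 probe 2 was dim, well above background on 5 of 12 arrays, and it showed the same order of diabetic over control hearts. The C hearts read 5.09, 4.89 and 4.78 and the D hearts 6.31, 6.53 and 6.73, a difference of 1.60 (SE 0.35). The C+P hearts read 4.55, 4.56 and 3.90, none of them well above background, and the D+P hearts read 5.08, 6.46 and 6.51. Under the main processing the D+P mean was at least 1.69-fold higher than that of C+P, or 0.76 in log2. For this bound the C+P arrays were set to no less than the lowest signal that counted as well above background. D+P replicate 1 again lay lowest among the diabetic hearts, below the highest C heart. With normexp background correction the differences of H19 probe 2 were 0.63 without pargyline and 0.62 with it, the second below that bound, so the bound depends on the processing.

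**Figure D1:**
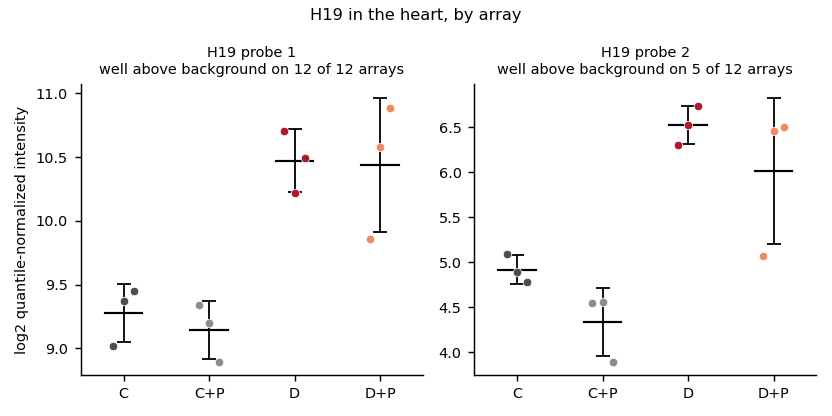
Each point is 1 heart, plotted as log2 quantile-normalized intensity by group for H19 probe 1 (left) and H19 probe 2 (right), with the group mean and SD (n = 3) in black. On H19 probe 1 the 6 diabetic hearts lie above all 6 control hearts, the lowest at 9.85 against a highest control of 9.45.

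No H19 difference with pargyline passed the test. On H19 probe 1, C+P differed from C by -0.14 (95% interval -0.72 to 0.45, limma adjusted p = 1.00) and D+P from D by -0.03 (95% interval -0.62 to 0.55, limma adjusted p = 0.965). The interaction, the diabetes difference under pargyline minus that without it, was 0.10 (95% interval -0.72 to 0.92, limma adjusted p = 0.961). On the dim H19 probe 2 the pargyline groups read lower: the C+P hearts lay wholly below the C hearts, with a difference of -0.59 (95% interval -1.36 to 0.19, limma adjusted p = 1.00), with no C+P heart well above background, and D+P against D gave -0.51 (95% interval -1.29 to 0.27, limma adjusted p = 0.543). The C and D hearts were hybridised on 1 slide and the C+P and D+P hearts on the other, each slide in its own scan, so pargyline and slide cannot be told apart. D against C and D+P against C+P are each within-slide comparisons. Diabetic and control hearts lay on different rows of a slide, and diabetes and row cannot be told apart.

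Igf2, the fetal growth factor that neighbours H19, was measured by a bright and a dim probe, which disagreed. On Igf2 probe 1 (chr7:149837115-149837174) the C hearts read 6.92, 7.54 and 7.57 and the D hearts 7.78, 7.87 and 7.86. The C+P hearts read 7.12, 7.21 and 6.72 and the D+P hearts 6.91, 7.70 and 8.08. D lay wholly above C by 0.49 (SE 0.29), whereas D+P exceeded C+P by 0.55 (SE 0.29) with D+P replicate 1 inside the C+P range. These differences depended on single hearts: leaving out 1 array at a time gave 0.28 (without C replicate 1) to 0.60 in D against C, and 0.29 (without D+P replicate 3) to 0.88 (without D+P replicate 1) in D+P against C+P. Igf2 probe 2 (chr7:149839661-149839720) was well above background on only 1 of 12 arrays and read 3.07 to 4.61 in D against 4.33 to 4.96 in C, and 5.14 to 5.35 in D+P against 3.66 to 4.99 in C+P. No fold is given for this probe. Over the 12 hearts Igf2 probe 1 followed H19 probe 1 with a Pearson r of 0.83, and with 0.88 for deviations from the group means, as a description of hearts that share arrays. The 2 probes ranked the C hearts alike and the D+P hearts alike. They ranked the D hearts, which lay close together on Igf2 probe 1, in reverse order, and the C+P hearts differently.

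Igf2r clears IGF2 from the cell surface and is the maternally expressed counterweight of Igf2. Its single probe was bright and nearly flat, at 11.26 to 11.70 in C and 11.30 to 11.75 in D, and at 11.12 to 11.40 in C+P and 11.41 to 11.52 in D+P. D differed from C by 0.07 (SE 0.17) and D+P from C+P by 0.19 (SE 0.17), where the D+P hearts lay just above the C+P hearts.

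Plagl1, an imprinted zinc-finger transcription factor that slows cell division and is known to act on the H19 and Igf2 domain, gave different answers on its 2 bright probes. On Plagl1 probe 1 (chr10:12850832-12850891) the C hearts read 7.99, 7.79 and 7.91 and the D hearts 9.48, 8.81 and 8.67. The C+P hearts read 8.53, 7.67 and 7.37 and the D+P hearts 8.68, 8.36 and 8.72. D lay wholly above C by 1.09 (SE 0.30), or 2.13-fold, and D+P exceeded C+P by 0.73 (SE 0.30) with overlap. Plagl1 probe 2 (chr10:12848421-12848480) differed by -0.07 (SE 0.21) and -0.17 (SE 0.21) in the same comparisons, and its hearts ranged from 6.31 to 7.11 over all groups. Both probes were well above background on 12 of 12 arrays, the brighter and the dimmer alike.

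Peg3, a paternally expressed zinc-finger protein of growth and maternal care, was near the detection limit on all 3 of its probes. On Peg3 probe 1 (chr7:6657078-6657137), well above background on 4 of 12 arrays, the C hearts read 5.06, 4.74 and 4.57 and the D hearts 5.86, 5.08 and 5.30. The C+P hearts read 4.58, 5.27 and 4.06 and the D+P hearts 5.31, 5.60 and 5.65. Diabetic hearts lay above control hearts in both pairs, by 0.62 (SE 0.30) without pargyline and by at least 1.19-fold with it, where no C+P heart was well above background. Without pargyline the difference was 0.28 with normexp background correction and 0.40 (without D replicate 1) to 0.79 with 1 array left out. The margin between the pairs of groups was small, 5.08 against 5.06 and 5.31 against 5.27.

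Mest, a paternally expressed gene of the hydrolase fold that is high in the embryo, was lower in diabetic hearts in both pairs on Mest probe 1 (chr6:30697385-30697444). It was well above background on 10 of 12 arrays, but on 1 of the 3 in D. The C hearts read 6.17, 6.36 and 6.10 and the D hearts 3.09, 5.97 and 5.69. The C+P hearts read 6.89, 6.01 and 6.37 and the D+P hearts 5.90, 5.79 and 5.80. The D mean was lower than the C mean (difference -1.295, SE 0.60), and D+P against C+P gave -0.59 (SE 0.60). The fit pools the spread over all groups, so both SEs take in the wide spread of the D hearts (SD 1.59). The SDs were 0.06 in D+P and 0.44 in C+P. D replicate 1 lay far below every other heart, and without it the difference in D against C was -0.38. That array had the highest variation between repeated spots, a median coefficient of variation of 23.4% against 3.92% on the lowest array, and its part in the result was not tested.

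**Figure D2:**
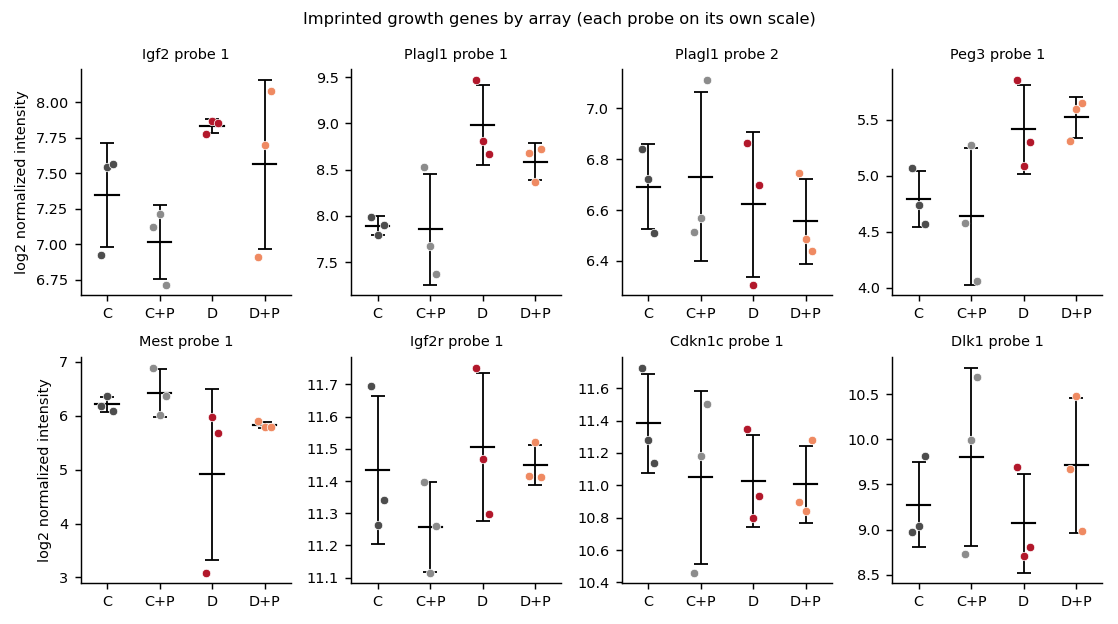
Log2 quantile-normalized intensity of 8 probes by group, with each heart as a point and the group mean and SD (n = 3) in black. Plagl1 probe 1 and Peg3 probe 1 are higher in D than in C, Plagl1 probe 2 is not, and the Mest value of 3.09 in D stands apart from the other hearts.

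Cdkn1c, a maternally expressed inhibitor of cyclin-dependent kinases, and Ndn, a paternally expressed growth suppressor best known from neurons, differed by at most 0.36 between diabetic and control groups. The single Cdkn1c probe read 11.14 to 11.73 in C and 10.80 to 11.35 in D, and 10.46 to 11.50 in C+P and 10.84 to 11.28 in D+P. D differed from C by -0.36 (SE 0.28) and D+P from C+P by -0.04 (SE 0.28), with overlap in both pairs. The single Ndn probe read 8.50 to 8.71 in C and 8.76 to 8.81 in D, a difference of 0.17 (SE 0.17) without overlap. In D+P against C+P the Ndn difference was 0.19 (SE 0.17), with overlap.

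Dlk1, a Notch-related membrane protein of fetal tissues, varied widely between hearts of the same group. Dlk1 probe 1 read 8.97, 9.04 and 9.82 in C against 9.70, 8.71 and 8.81 in D, and 8.73, 9.997 and 10.69 in C+P against 9.68, 10.48 and 8.98 in D+P. All 4 groups overlapped, and the differences were -0.21 (SE 0.52) without pargyline and -0.09 (SE 0.52) with it. None of the 12 arrays had Dlk1 probe 2 well above background.

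Meg3, the non-coding partner of Dlk1, was lower in D than in the other groups on its 2 bright probes and not on the dim probe. Meg3 probe 1 read 9.24, 9.86 and 9.48 in C against 8.9998, 8.97 and 8.53 in D, and 9.15, 9.49 and 9.97 in C+P against 10.22, 9.75 and 9.64 in D+P. The D hearts lay below every heart of the other 3 groups on this probe. Of all probes 10.4% lay wholly below in D against C, and the share below all the other groups was not counted. D against C gave -0.70 (SE 0.26) and D+P against C+P gave 0.33 (SE 0.26). Meg3 probe 2 gave -0.67 (SE 0.35) and 0.40 (SE 0.35), with hearts at 8.81, 8.68 and 8.23 in C and 8.52, 7.87 and 7.33 in D, which overlap. Meg3 probe 3, well above background on 4 of 12 arrays, gave 0.48 (SE 0.37) and 0.28 (SE 0.37). Leaving out 1 array gave it 0.13 to 0.68 in D against C and -0.12 to 0.61 in D+P against C+P. With 1 array left out, Meg3 probe 2 ranged from -0.97 (without D replicate 1) to -0.38 (without D replicate 3) in D against C and from 0.16 (without C+P replicate 1) to 0.68 (without C+P replicate 3) with pargyline, where Meg3 probe 1 ranged from 0.14 to 0.55. With the 4 arrays numbered 1 left out, a setting added after seeing the data, D against C gave -0.92 and -0.85 on the 2 bright probes, and D+P against C+P gave -0.037 and -0.042.

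Other readings of the same arrays are given beside the low Meg3 of the D hearts. D replicates 1 and 3 had the fewest spots well above background, 23556 and 24666, against 28774 in D replicate 2, 28472 to 29231 in C, 25164 to 28272 in C+P and 25157 to 27930 in D+P. Of 6 endothelial markers 3 read higher and 3 lower in D against C, with a median of 0.0071, and all 6 read higher in D+P than in D, with a median of 0.14. The marker with the largest differences, Kdr, the main VEGF receptor of endothelium, gave -0.37 in D against C, without overlap, and 0.75 in D+P against D (limma adjusted p = 0.176). Their summed intensity was 11367 to 13939 in C and 10537 to 12537 in D, and 10956 to 15052 in C+P and 13545 to 16695 in D+P. Of 6 mural cell markers 2 read higher and 4 lower in D against C, with a median of -0.14, and 4 read higher in D+P than in D, with a median of 0.26. The marker with the largest differences, Myh11, the smooth muscle myosin, gave -0.83 in D against C, with overlap, and 1.59 between D+P and D (limma adjusted p = 0.157). Their summed intensity was 14403 to 16596 in C and 12401 to 17115 in D, and 13048 to 14165 in C+P and 13082 to 15454 in D+P. The part of array signal and of these cells in the Meg3 values was not tested.

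D+P exceeded D by 1.04 on Meg3 probe 1 (95% interval 0.46 to 1.61) and by 0.85 on Meg3 probe 2 (95% interval 0.08 to 1.62). Neither passed the test over all probes (limma adjusted p = 0.184 and 0.331). The interaction was 1.03 on Meg3 probe 1 and 1.07 on Meg3 probe 2, and it did not pass either (limma adjusted p = 0.677 and 0.710). Of 5 other long non-coding RNAs of imprinted domains, a set looked at after the Meg3 values were seen, Kcnq1ot1 and Airn gave -0.90 (SE 0.30) and -0.90 (SE 0.45) in D against C, and 0.94 (SE 0.30) and 1.17 (SE 0.45) in D+P against D. Peg13 gave -0.06 (SE 0.18) and 0.21 (SE 0.18) in the same comparisons. Mirg and Rian, transcribed from the Meg3 domain, gave 0.36 (SE 0.62) and 0.23 (SE 0.59) in D against C, and 0.72 (SE 0.62) and 0.08 (SE 0.59) in D+P against D. Both were dim, well above background on 6 and 5 of 12 arrays, where Kcnq1ot1, Airn and Peg13 were so on 12. None of the 5 passed the test in either comparison, the lowest limma adjusted p being 0.244.

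**Figure D3:**
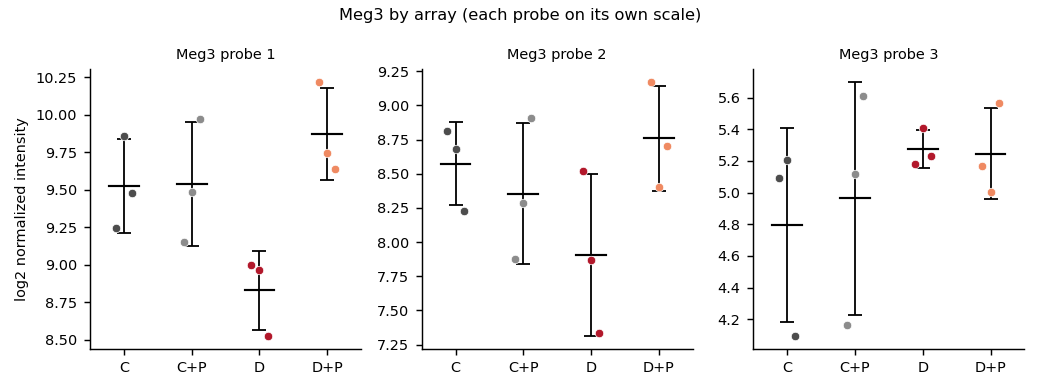
Log2 quantile-normalized intensity of the 3 measurable Meg3 probes by group, with each heart as a point and the group mean and SD (n = 3) in black. On Meg3 probe 1 the 3 D hearts, the highest of them at 8.9998, lie below all other hearts.

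Across the 13 measurable probes of the 9 members other than H19, the diabetes differences did not run one way. The median difference was -0.07 without pargyline and 0.28 with it, where the medians over all 30859 tested probes were -0.01 and 0.01. Without Igf2 probe 2, which was not well above background on any C, C+P or D array, the member medians were 0.0017 and 0.24. In D against C, 4 of the 13 probes lay wholly above and 2 wholly below, where 11.9% of all probes lay wholly above and 10.4% wholly below. In D+P against C+P, 3 lay wholly above and 1 wholly below, where the shares of all probes were 7.32% and 6.57%. In both pairs together 1 probe, Peg3 probe 1, was higher and 1 probe, Mest probe 1, was lower, where 1.21% and 1.29% of all probes were. Both H19 probes were higher in both pairs, which is the pattern H19 was chosen for.

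**Figure D4:**
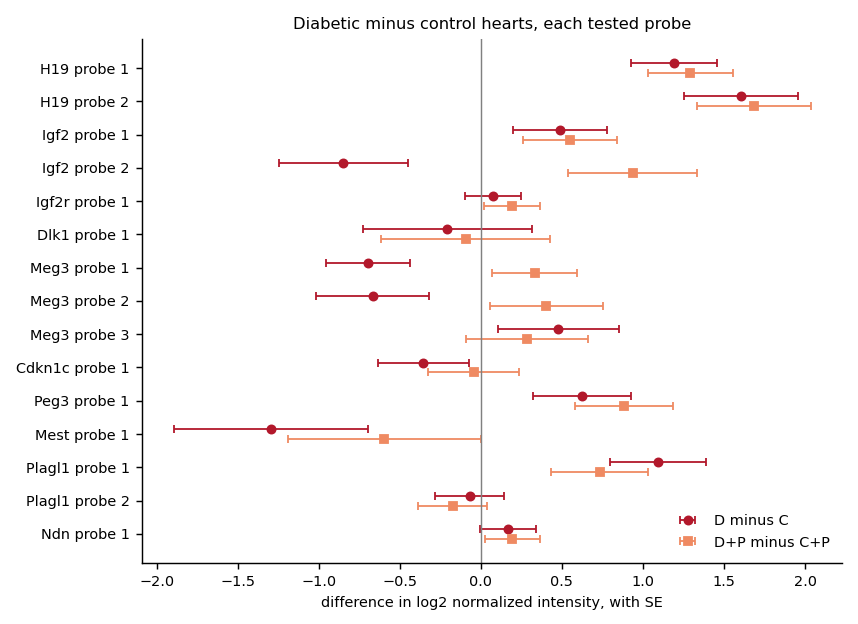
Difference in log2 normalized intensity for each of the 15 measurable probes, D minus C (circles) and D+P minus C+P (squares), with bars of 1 SE from the fit. H19 probe 1 lies at 1.19 and 1.29, and the first 2 Meg3 probes change sign between them. In D+P minus C+P the points of H19 probe 2, Igf2 probe 2 and Peg3 probe 1 are set against C+P hearts none of which was well above background, and the D minus C point of Igf2 probe 2 compares hearts none of which was, so the sizes of these differences are uncertain.

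No member probe passed the test for pargyline. Of the 15 tested, limma called 0 in C+P against C, where it called 0.0324% of all probes, 0 in D+P against D, where it called 0% of all probes, and 0 for the interaction, where it called 0.00648%. At an unadjusted p under 0.05 the counts were 0, 3 and 2, where 4.43%, 13.3% and 7.03% of all probes fell. The methods' t-test was adjusted here by Benjamini-Hochberg, where the study's methods name a Bonferroni correction. It called 0 after adjustment in each of the 2 pargyline comparisons, and 0 and 2 probes before it, where 7.69% and 8.34% of all probes fell. The 3 probes in D+P against D were Meg3 probes 1 and 2 and Igf2 probe 2, the last not well above background on any D array.

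The 9 probes that did not pass the filter add no measurable member. They were Dlk1 probe 2, Meg3 probes 4 and 5, Peg3 probes 2 and 3, Mest probes 2, 3 and 4, and Plagl1 probe 3. Meg3 probe 4 and Plagl1 probe 3 were each well above background on 1 array and the other 7 on none. Of all 24 probes, 10 were well above background on every array. Meg3 probe 4 read 4.99 to 5.61 in C+P and 3.55 to 4.33 in C, and Peg3 probe 2 read 4.21 to 5.25 in D and 3.23 to 4.49 in C.

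The wider set of 116 related genes in 5 lists gave no call. Of these, 87 had a tested probe, and limma called 0 in D against C (0.00648% of all probes called), 0 in the pair given pargyline (0.0454%) and 0 in the average of both pairs (0.107%), with 11, 7 and 13 at an unadjusted p under 0.05, or 12.6%, 8.05% and 14.9% of the 87, where 10.8%, 7.46% and 11.4% of all probes fell. It also called 0 in each pargyline comparison and 0 for the interaction, with 4, 10 and 9 at an unadjusted p under 0.05, or 4.60%, 11.5% and 10.3%, where 4.43%, 13.3% and 7.03% of all probes fell. The methods' t-test called 0 after Benjamini-Hochberg adjustment in each pair of groups.

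Among 36 measured imprinted genes outside the members, 20 were higher and 16 lower in diabetic hearts averaged over pargyline, with a median of 0.01. Sgce, a maternally silenced sarcoglycan of the muscle membrane, lay above in both pairs, at 9.46 to 9.79 in C, 9.96 to 10.45 in D, 9.50 to 9.68 in C+P and 9.88 to 10.18 in D+P, a difference of 0.45 (SE 0.13, limma adjusted p = 0.240). Slc22a3, an organic cation transporter that also carries monoamines, lay below in both pairs (differences of -0.21 and -0.48), and its averaged difference was -0.35 (SE 0.11, limma adjusted p = 0.273). These were the only genes of the list that did not overlap in the same direction in both pairs, 1 of 36 in each direction, where 1.21% of all probes lay higher and 1.29% lower in that way.

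Of 10 measured genes that flank H19 and Igf2 on chromosome 7, 2 were higher and 8 lower in diabetic hearts averaged over pargyline, with a median of -0.08. Nctc1, a muscle non-coding RNA and the nearest gene of the list on the side away from Igf2, read higher by 0.42 without pargyline, with overlap, and by 0.27 with it, without overlap (averaged difference 0.34, SE 0.13, limma adjusted p = 0.386). Tnni2, the fast skeletal troponin I, lay below in both pairs, at 7.80, 8.17 and 7.84 in C and 6.92, 6.77 and 7.57 in D, and at 8.26, 8.08 and 8.11 in C+P and 7.75, 6.80 and 6.38 in D+P. Its averaged difference was -1.01 (SE 0.23, limma adjusted p = 0.155), and it was called with D+P replicate 1 left out (limma adjusted p = 0.0303) and with array weights (limma adjusted p = 0.0254). Those 2 settings called 116 and 348 of all probes for the averaged difference, against 33 in the main fit.

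In the insulin-like growth factor axis, 9 of 16 measured genes were higher and 7 lower, with a median of 0.08. In the imprinting and DNA methylation machinery, which holds the methyltransferases and the proteins that guard imprints, 10 of 21 were higher and 11 lower, with a median of -0.03. Of 5 cell cycle brakes related to Cdkn1c, 3 were higher and 2 lower, with a median of 0.29. The median over all tested probes was -0.01. No gene of these 3 lists was without overlap in the same direction in both pairs. Zfp57, a zinc-finger protein that keeps imprints methylated, ranged from 4.69 to 11.93 over the 12 hearts, and D replicate 1 and D+P replicate 1 were the low ones at 4.69 and 6.93.

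**Figure D5:**
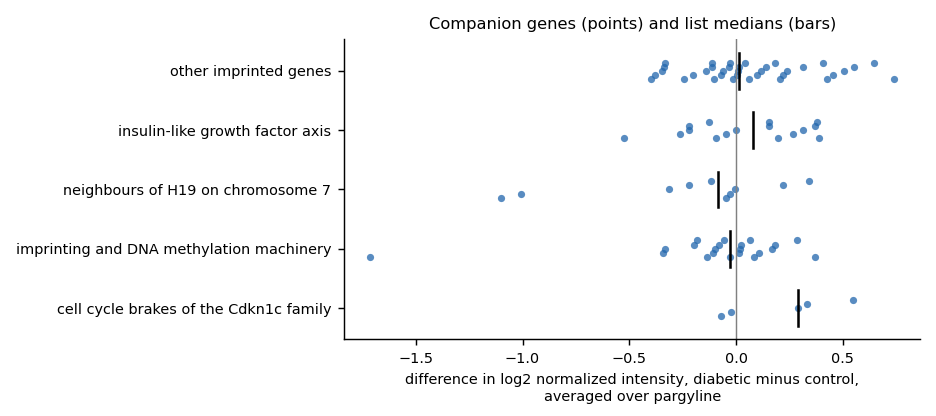
Each point is 1 measured gene of a related list, placed by its difference in log2 normalized intensity between diabetic and control hearts averaged over pargyline, with the list median as a bar. The medians lie between -0.08 and 0.29, and the lowest points are Zfp57, Syt8 and Tnni2.

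The 5 genes whose pattern over the 12 hearts was most like that of H19 probe 1 were Acot1 (r = 0.97), Rps19 (r = 0.96), Gm11716 (r = 0.95), Gm16253 (r = 0.95) and Myom2 (r = 0.95), out of 30819 measured probes. Acot1 cleaves fatty acyl-CoA, Rps19 is a ribosomal protein and Myom2 is a protein of the sarcomere M-band. For deviations from the group means the Pearson r was 0.81, 0.72, 0.93, 0.86 and 0.83 in the same order, pooled over the 4 groups. Among the 3 C hearts, Gm11716 ranked them as H19 probe 1 did, whereas Acot1, Rps19, Gm16253 and Myom2 did not. H19 probe 2 gave 0.93 over the 12 hearts and 0.70 for deviations, and it ranked the 3 C hearts in the reverse order of H19 probe 1. All correlations share the 12 arrays and their scaling, and they are a description.

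Marker genes of other cell types were read beside H19, and limma called none of those named here. All 6 macrophage markers were lower in diabetic hearts, with a median of -0.47 averaged over pargyline. The scavenger receptor Cd163 and Cd68 lay below without overlap in both pairs, with averaged differences of -0.96 (limma adjusted p = 0.111) and -0.49 (limma adjusted p = 0.268). Their summed intensity was 4895 to 6599 in C and 3742 to 5122 in D, and 5207 to 7308 in C+P and 4039 to 4944 in D+P. The 8 fibroblast markers were split, 4 higher and 4 lower, with summed intensities of 12800 to 13801 in C and 13974 to 15205 in D, and 12965 to 15708 in C+P and 11943 to 17159 in D+P. Among them Lum lay above in both pairs, by 0.42 and 0.44. Of 5 epicardial and mesothelial markers only Wt1 and Msln were measurable, with averaged differences of 0.12 and 0.88, and their summed intensity was 310 to 361 in C and 429 to 619 in D, and 379 to 555 in C+P and 340 to 633 in D+P. Of the 8 cardiomyocyte markers 4 were higher and 4 lower, and Ryr2 lay below in both pairs, with differences of -1.12 and -0.85. Of the 8 skeletal muscle markers, Tnni2 was well above background on 12 arrays, Pvalb and Tnnt3 on 11, Myh4 on 4, Mylpf on 1, and Myh1, Myh2 and Actn3 on 0, and 3 of the 6 tested were higher and 3 lower. Averaged over pargyline, 4 of 6 endothelial, 3 of 6 mural cell, 2 of 3 measured adipocyte, 2 of 4 red cell and 1 of 3 measured atrial markers were higher. The part of these cells in the H19 difference was not tested, and in whole tissue fewer cells of a type and less RNA per cell cannot be told apart.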

How the data were processed

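Total RNA from 12 hearts (4 groups of 3 mice) was hybridised to 1-colour Agilent arrays, which the authors scanned. They extracted the spots with Feature Extraction, version 12.0.0.7 per the file headers, whereas the methods name another version. Their deposited intensity values (processed, mean and background signals) were used here, and the deposited series table of quantile-normalized intensity values served as an alternative. Probe positions are those of mm9 in the files. Control spots were left out, outlier spots were set to missing, log2 intensities were quantile-normalized and repeated spots were averaged with limma 3.58.1 in R 4.3.3. This order was settled after the calls under 6 orders of these steps had been seen, because it matched an earlier treatment of these data; the other 5 are among the alternatives. Of 56605 probes, 30859 were tested: in every group, 50% or more of the arrays had to be positive and significant. A model with 1 mean per group was fitted to all tested probes, with Benjamini-Hochberg adjustment over all of them and a threshold of 0.05. SDs and SEs measure the spread of 3 mice, and the number of arrays limits precision. The fit was tested on simulated data. Between 23556 and 29231 spots per array were well above background.

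Members and lists were chosen with earlier results of these data known. All member probes are named. From the lists, called genes are named, and up to 3 per list with the largest averaged difference among those that did not overlap in the same direction in both pairs, and the 5 genes most like H19. Kcnq1ot1, Airn, Peg13, Mirg, Rian, Nctc1, Zfp57 and the single marker genes other than Cd163, Cd68, Lum, Ryr2 and Tnni2 fall outside this rule and were named after their values were seen. A list gene is represented by its brightest tested probe. Alternatives were 75th percentile scaling, normexp with an offset of 50, missing values, 2 filters, the series table, array weights, the methods' t-test, a replicate block, slide as a block, the median probe, leaving out each array and, added after seeing the data, the 4 arrays numbered 1 left out together and array weights for the differences.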

Additional observations from a re-analysis of the deposited data

How the results depend on the processing

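The H19 probe 1 difference kept its direction under 75th percentile scaling, normexp, array weights, the 5 other orders of steps and each array left out, and moved by less than the SD between hearts. It was 0.88 to 1.32 in D against C, 1.07 to 1.58 in D+P against C+P and 1.00 to 1.39 averaged over pargyline. With the 4 arrays numbered 1 left out together it was 0.945 and 1.68 in the 2 pairs, the second a move of more than the SD. Setting dim values to missing cannot move this probe, which was positive and significant on every array. The series table was not used for H19, and the 2 filters, the median probe and the t-test bear on calls alone. Member calls for pargyline stayed at 0 under each alternative. Of the other members, 2 probes lay apart in the same direction in both pairs, where 2.50% of all probes did. The count was 1 with normexp background correction (2.02% of all probes), 4 with the arrays numbered 1 left out (19.4%, with 2 hearts a group) and 2 to 3 when single arrays were left out (2.97% to 5.40%). In D+P against C+P, Ndn was -0.058 with normexp background correction and Meg3 probe 1 was -0.037 with the arrays numbered 1 left out; the cause was not tested. Of 666 alternative values for 28 member differences, 20 had the opposite sign, in 10 of the 28, all in differences of 0.40 or less in size (Cdkn1c, Dlk1, Igf2r, Meg3, Ndn and Plagl1 probe 2). Leaving out 1 array moved 21 of the 28 by over 1.5 times or to the opposite sign, the exceptions being H19 probe 2 and Plagl1 probe 1 in both pairs, Meg3 probe 1 in D against C, and Igf2 probe 2 and Peg3 probe 1 in D+P against C+P.

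Companion genes called in the diabetes comparisons rose from 0 to 2 with array weights (Irs2 and Tnni2), and ranged from 0 to 1 when single arrays were left out (Tnni2, without D+P replicate 1). Irs2 was called in D against C, where the weights raised the calls among all 30859 probes from 2 to 279. Tnni2 was called in the averaged difference, where they rose from 33 to 348. In the pargyline comparisons and the interaction, 3 were called with array weights (Gatm, Irs2 and Cdkn1a), all in C+P against C. Calls among all probes in that comparison rose from 10 to 206 with the weights. The cause was not tested. Calls among all probes for the averaged diabetes difference moved widely, from 33 to 4 with the replicate block, 16 with no filter, 78 with the stricter filter, 348 with array weights, 0 by limma with the arrays numbered 1 left out (6135 at an unadjusted p under 0.05) and, with single arrays left out, 3 (without C replicate 3 or D+P replicate 2) to 116 (without D+P replicate 1). Over the 5 other orders of the normalization steps, added after seeing the data, they were 33 to 40.

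In this balanced design a replicate or slide block leaves a difference between group means as it is, so the H19 values with the replicate block, 1.19 and 1.29, say nothing of stability. With that block no member was called for pargyline, and no companion gene in any comparison. The numbers were not taken to pair the hearts: correlations of deviations between hearts of 1 number ranged from -0.20 to 0.20, and 5 of 12 hearts correlated best with their own number. The 4 arrays numbered 1 did share a high median variation between repeated spots, 10.5% to 23.4%, against 3.92% to 5.81% on 7 of the other 8 arrays and 13.3% on D+P replicate 3. Dim probes, with few arrays well above background, are limited by signal.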
